A study of Schmidtea mediterranea with 36 samples.

Results

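Transcripts that X2 and Xins cells shared at similar average levels, and that were low in X1 cells, were examined in the asexual strain of the planarian Schmidtea mediterranea. X1, X2 and Xins are populations sorted by FACS on a nuclear and a cytoplasmic dye. The X1 gate collects stem cells that are replicating their DNA or dividing, the X2 gate stem cells outside those phases along with early progeny, and the Xins gate differentiated cells, so that each gate is a mixture of cell types. The cells came from planarians starved for 1, 7 or 30 days (1dS, 7dS and 30dS), which received no other treatment, and each of the 9 groups had 4 RNA-seq libraries (36 in all). The 200 members were chosen from 26558 transcripts. Libraries were first scaled to sum to 1000000 each, and log2(TPM + 1) was averaged over the 12 libraries of each population. Of the 3810 transcripts that averaged 10 TPM or more in X2 and in Xins and with less than 1 (log2) between these populations, the 200 with the largest gap were kept, the gap being the lower of the X2 and Xins means minus the X1 mean. Levels in the 3 populations, pooled over starvation, therefore chose the members, and they are described here without a test. Transcripts are named as in the equivalent transcriptome release, in which dresden_comp508_c0_seq1 of the tables is dd_Smed_v6_508_0_1. The study's tables give a gene symbol for 5 of the members and a Gene Ontology (GO) term only for 6 more, and the other members go by their transcript name.

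In planarians the stem cells, called neoblasts, are the only somatic cells that divide, and differentiated cells are replaced from their progeny. Cells that leave the cycle build the structures of their tissue. Alpha- and beta-tubulins pair to form microtubules, which make up the mitotic spindle of dividing cells and, in differentiated cells, axons and the shafts of the cilia on which planarians glide. Cells that secrete large amounts of protein fold it in the endoplasmic reticulum (ER). In animals, Xbp1 is a transcription factor of the unfolded protein response, which adjusts that folding capacity, and P4HB is a protein disulfide isomerase of the ER that is also a subunit of the enzyme that hydroxylates collagen.

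The label of the gates was checked with cdk1, which encodes a kinase needed to enter mitosis and which averaged 4.43, 0.120 and 54.7 TPM in X2, Xins and X1. Over the 36 libraries, the deposited columns summed to between 638389 and 1935390, and 1733 to 10378 transcripts per library were listed at 0. X2 1dS replicates 1 and 3 had the most, 10378 and 7479, against at most 6092 in any other library. The deposited values hold no read counts, so the depth behind a value is unknown. The labels do not say whether replicates came from separate planarians. For the longest starvation, the paper's legends count planarians per replicate, which describes each replicate as its own pool of animals. Whether the pools were sorted and prepared separately is not stated. The p-values speak only for the spread among these libraries, part of which may be technical.

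The median member stood 1.89 (log2) above X1 by the gap, and the gaps ran between 1.41 and 5.49. The median member averaged 30.0 TPM in X2, 40.9 in Xins and 5.67 in X1. Few members were silent in X1, where 14 averaged under 1 TPM and 69 at least 10 TPM. Xins was the higher of the 2 other populations for 151 members and X2 for 49. The likeness of X2 and Xins was weaker at 1dS, where 133 members were within 1 (log2), against 185 at 7dS and 187 at 30dS. The median of X2 minus Xins was -0.76, -0.29 and -0.23 at these times. In 119 members each of the 12 X2 libraries lay above each of the 12 X1 libraries, and in 172 members this held for Xins. Summed, the members took 1.13 ± 0.229%, 1.70 ± 0.173% and 1.73 ± 0.156% of an X2 library at 1dS, 7dS and 30dS (mean ± SD, n = 4 each), 1.81 ± 0.181%, 1.86 ± 0.301% and 1.97 ± 0.310% of an Xins library and 0.334 ± 0.0411%, 0.318 ± 0.0726% and 0.325 ± 0.0448% of an X1 library.

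**Figure D1:**
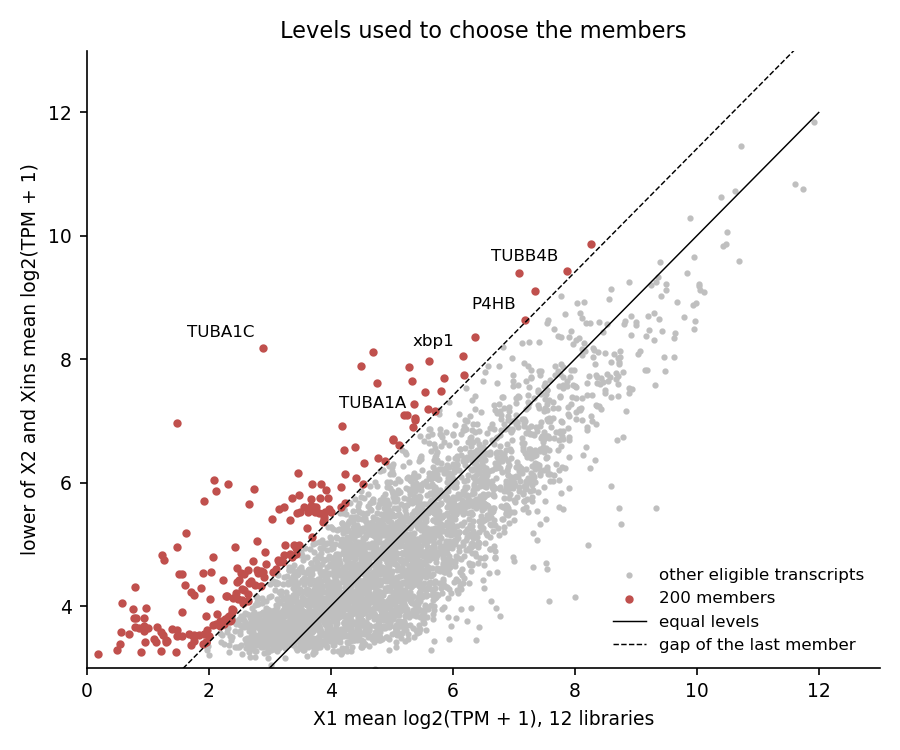
Each point is a transcript eligible under the rule, with its X1 mean log2(TPM + 1) on the x axis and the lower of its X2 and Xins means on the y axis, over 12 libraries per population. The 200 members (red) lie above the dashed line, which marks the smallest gap among them, 1.41, and TUBA1C stands far above it.

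**Figure D2:**
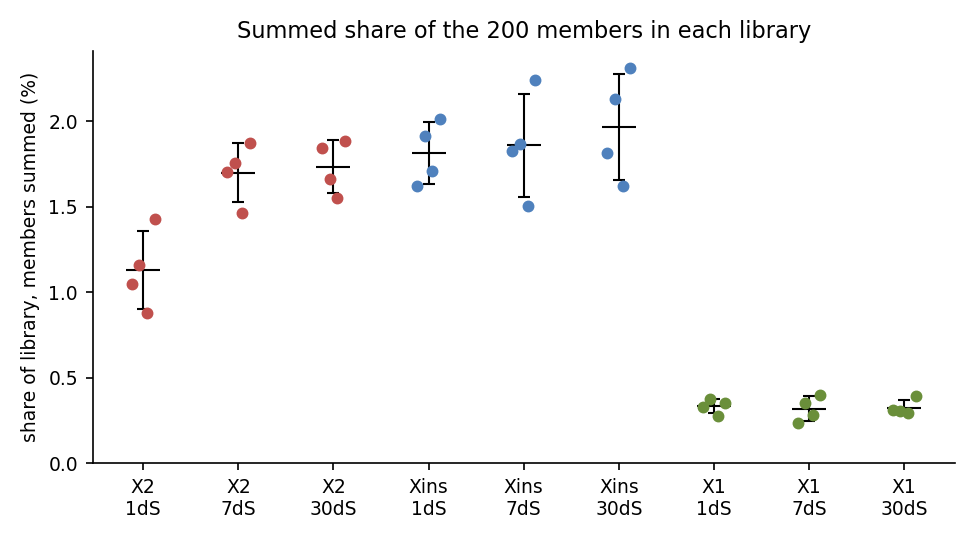
Points are libraries, and the y axis is the summed share of the 200 members in percent, with bars for the mean and SD of 4 libraries per group. The X2 libraries averaged 1.13% at 1dS and 1.70% and 1.73% at the later times, while the X1 libraries stayed between 0.236% and 0.400%.

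Among the members with a gene symbol were 2 alpha-tubulins and a beta-tubulin. TUBA1C (dd_Smed_v6_508_0_1) had 125, 314 and 421 TPM in X2 (lowest, median and highest of 12), 361, 467 and 914 in Xins and 2.67, 5.82 and 16.1 in X1. It was the second member by the rule, and its highest X1 library lay well below its lowest X2 library. TUBA1A (dd_Smed_v6_2143_0_1) had 77.4, 142 and 211 TPM in X2, 104, 199 and 471 in Xins and 19.4, 43.4 and 63.7 in X1, and its X2 and X1 libraries did not overlap. The beta-tubulin TUBB4B (dd_Smed_v6_471_0_1) had 215, 897 and 1264 TPM in X2, 639, 1068 and 2171 in Xins and 124, 242 and 330.2 in X1, where the lowest X2 library lay inside the X1 range. The study's tables annotate 4 alpha-tubulin and 5 beta-tubulin transcripts in all, and the other 6 were not members. The other TUBA1C transcript, dd_Smed_v6_1623_0_1, averaged 72.1, 36.6 and 71.9 TPM in X2, Xins and X1, and the most abundant TUBB4B transcript, dd_Smed_v6_152_0_1, averaged 1802, 1763 and 3592 TPM, highest in X1. Reads from such close paralogs could be split between them by the pseudo-alignment, so the level of any single tubulin transcript is uncertain.

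The remaining symbols belong to genes of ER protein folding. xbp1 (dd_Smed_v6_415_0_1) had 204, 397 and 599 TPM in X2, 198, 264 and 354 in Xins and 31.4, 70.5 and 123 in X1, and P4HB (dd_Smed_v6_250_0_1) had 343, 624 and 1185 TPM in X2, 165, 388 and 1009.9 in Xins and 71.4, 162 and 293 in X1. Both were higher in X2 than in Xins by the means, and in both every X2 library lay above every X1 library. Of 13 transcripts of ER stress genes that the study named, a list drawn from a separate RNAi experiment of the study, 12 had the lower of their X2 and Xins means above X1, of which xbp1 alone was a member. Nearest outside were bip-1, the main ER chaperone of the HSP70 family, at rank 213 with 326, 345 and 125 TPM in X2, Xins and X1, atf6, a sensor of the unfolded protein response, at rank 253 with 50.5, 42.0 and 15.9 TPM, and the ER co-chaperone dnajc3 at rank 267 with 26.1, 29.4 and 9.66 TPM. A gap above 0 was common, as bip-2 still had 0.25 at rank 1375 of the 3810 eligible transcripts. Of the 12, a bip-3 transcript averaged only 0.24, 0.50 and 0.19 TPM in X2, Xins and X1 and was not eligible. None of the 8 subunits of TRiC, the cytosolic chaperonin that folds actin and tubulin, was a member, and in all 8 the lower of the X2 and Xins means was below X1. The members also held none of 34 aminoacyl-tRNA synthetases and none of 40 translation factors. As only 200 of the 26558 transcripts are members, lists this short could hold none whatever their genes.

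The largest gap belonged to dd_Smed_v6_2103_0_1, which had 15.3, 188 and 478 TPM in X2, 103, 193 and 396 in Xins and 0.499, 2.01 and 3.13 in X1. Its X2 values spread widely, with the lowest of them at 1dS, yet all lay above X1. The third and the fifth by the rule, dd_Smed_v6_5882_0_1 and dd_Smed_v6_8717_0_1, averaged 73.0 ± 10.8 TPM in X2, 66.4 ± 13.7 in Xins and 3.30 ± 0.498 in X1 for the first of them and 60.7 ± 20.5 TPM in X2, 67.3 ± 10.5 in Xins and 3.44 ± 0.979 in X1 for the other (SD, n = 12 each). The other members among the first 10 were dd_Smed_v6_1106_0_1, dd_Smed_v6_2408_0_1, dd_Smed_v6_2516_0_1, dd_Smed_v6_1054_0_1, dd_Smed_v6_2920_0_1 and dd_Smed_v6_2282_0_1. These 6 averaged 26.3 to 84.5 TPM in X2, 27.8 to 66.6 in Xins and 0.842 to 4.05 in X1. At the other end, the last 3 members, dd_Smed_v6_7460_0_1, dd_Smed_v6_6575_0_1 and dd_Smed_v6_6931_0_1, had gaps of 1.42, 1.42 and 1.41. The first 3 left out, dd_Smed_v6_2376_0_1, dd_Smed_v6_494_0_1 and dd_Smed_v6_13816_0_1, had 1.41, 1.40 and 1.40, so the edge of the list separates nearly equal values.

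The members covered a wide range of abundance. The most abundant in X2 was dd_Smed_v6_3_0_1, with 952 TPM in X2, 1049 in Xins and 324 in X1, followed by TUBB4B and P4HB. The least abundant were dd_Smed_v6_12656_0_1, dd_Smed_v6_452_0_1 and dd_Smed_v6_4318_0_1, at 10.2, 10.3 and 10.5 TPM in X2. The members most tilted to X2 were dd_Smed_v6_1731_0_1, dd_Smed_v6_2520_0_1 and dd_Smed_v6_5447_0_1, 1.0, 0.99 and 0.94 (log2) above Xins. Those most tilted to Xins were dd_Smed_v6_4944_0_1, dd_Smed_v6_20_0_1 and dd_Smed_v6_6621_0_1, for which X2 minus Xins was -1.0, -0.99 and -0.99. Replicates varied most in dd_Smed_v6_652_0_1, dd_Smed_v6_8060_0_1 and dd_Smed_v6_873_0_1, with SDs of 1.33, 1.11 and 1.08 (log2, averaged over the X2 and Xins groups). They varied least in dd_Smed_v6_838_0_1, dd_Smed_v6_4665_0_1 and dd_Smed_v6_1864_0_1, with 0.11, 0.12 and 0.14, and the median over the members was 0.46.

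Starvation was not used to choose the members, so times were compared within each population. The paper describes planarians at 1dS as still responding to feeding. In a change against 1dS the end of that response and starvation therefore cannot be told apart. These tests used the normalised TPM as the authors deposited them, in which each population was scaled on its own, as log2(value + 1) in limma with Benjamini-Hochberg adjustment over all those averaging 1 or more, at an adjusted p of at most 0.1. All 200 members were tested in X2 and in Xins, and 184 in X1. The rule itself favoured no time, but it had required a mean of at least 10 TPM over the times in X2 and in Xins. A member under 10 at 1dS could thus meet that floor only through its later libraries. For dd_Smed_v6_8528_0_1 and dd_Smed_v6_100_0_1, whose rises are given below, every X2 1dS library was under 10 (normalised TPM). The other transcripts tested needed an average of only 1, and the part of this in the shares below was not tested. Per-library values below are these normalised TPM, in the order of the replicate numbers.

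In X2, planarians at 7dS and 30dS had higher levels of many members than planarians at 1dS. At 7dS, 48 members were higher and 5 lower, 24% and 2.5% of 200, against 9.56% and 6.79% of the 15003 transcripts tested. At 30dS, 51 were higher and 5 lower, 25.5% and 2.5%, against 12.5% and 8.19% of all. The median change was 0.29 at 7dS and 0.22 at 30dS (log2), against 0.05 and 0.04 over all transcripts. Rescaling each library to 1000000 moved the median of all transcripts to 0.36 and 0.39. Relative to all transcripts, the members' median was 0.24 and 0.18 as deposited, 0.33 and 0.25 after rescaling and 0.23 and 0.17 with median-of-ratios scaling. The groups of 4 libraries did not overlap in 33 of the 48 and 36 of the 51, 68.8% and 70.6%, against 73.7% and 79.0% of all transcripts called higher.

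Single libraries weighed on these counts. Without X2 1dS replicate 1, and likewise without X2 7dS replicate 2, 28 members were higher at 7dS, and without X2 30dS replicate 1, 33 were higher at 30dS. These were 14%, 14% and 16.5% of the members, against 6.11%, 5.44% and 6.8% of all, so the counts over all transcripts fell too. Without X2 1dS replicates 1 and 3 together, the pair with the most transcripts at 0 (an alternative chosen after seeing the data), 10 and 26 were higher, 5% and 13%, against 1.5% and 4.39% of all. None was lower at either time, against 1.67% and 3.13% of all. The median change of the members in that fit was 0.29 at 7dS and 0.24 at 30dS. The 5 members lower at each time rested on single libraries as well. Leaving out any 1 of the 8 libraries but X2 7dS replicate 3 moved the count at 7dS by over 1.5 times, to between 0 and 13, and any but X2 1dS replicate 2 moved that at 30dS, to between 1 and 17, both highest without X2 1dS replicate 4. The 13 and 17 were 6.5% and 8.5% of the members, against 11.4% and 12.8% of all. With median-of-ratios scaling 1 was lower at 7dS, against 6.18% of all.

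Other lists moved in the same X2 libraries. The 200 transcripts highest in X1 alone, a list made in the same way as the members, took 0.765 ± 0.160%, 0.306 ± 0.0344% and 0.439 ± 0.0189% of an X2 library at 1dS, 7dS and 30dS, and 134 of its 196 tested transcripts were lower at 7dS. The 200 highest in Xins alone took 0.165 ± 0.0511%, 0.345 ± 0.0884% and 0.379 ± 0.102%, and 61 of 165 were higher at 7dS. Levels of cdk1 in X2 were 7.61 ± 1.20, 2.28 ± 0.818 and 3.41 ± 0.726 TPM at 1dS, 7dS and 30dS (SD, n = 4 each). The part of these shifts in the members' change was not tested, and in sorted pools fewer cells of a type and less RNA per cell cannot be told apart.

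**Figure D3:**
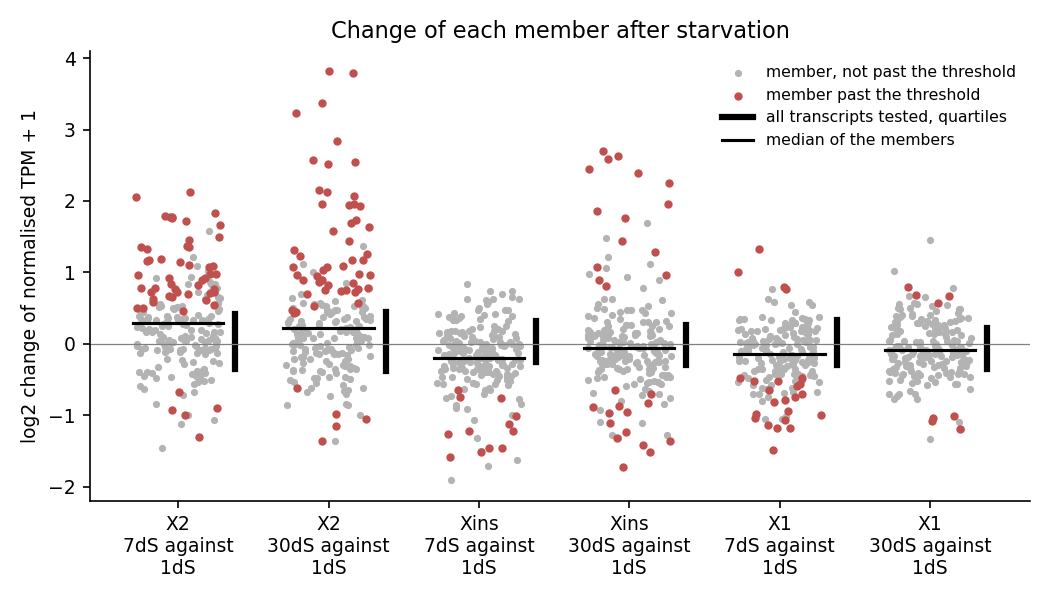
Each point is a member, with its log2 change of normalised TPM + 1 against 1dS on the y axis, red where the adjusted p (limma) was at most 0.1. Thin lines mark the members' median and thick bars the quartiles of all transcripts tested. In X2 the medians were 0.29 and 0.22, and in Xins they were -0.19 and -0.06.

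At 7dS the largest rises in X2 without overlap between the libraries were in transcripts without a symbol. dd_Smed_v6_2103_0_1 had 475, 158, 112 and 132 in X2 cells at 7dS, against 20.3, 32.8, 38.1 and 111 at 1dS, a change of 2.12 ± 0.50 (SE, adjusted p = 0.023). X2 7dS replicate 1 was the high one of its group, and the lowest 7dS library was only just above the highest at 1dS. dd_Smed_v6_8528_0_1 had 35.4, 24.9, 25.8 and 16.5 in X2 cells at 7dS, against 3.45, 5.12, 6.65 and 6.15 at 1dS, a change of 2.05 ± 0.28 (SE, adjusted p = 0.0043). dd_Smed_v6_2282_0_1 had 54.3, 41.9, 46.2 and 39.1 in X2 cells at 7dS, against 7.93, 15.2, 9.32 and 17.8 at 1dS, a change of 1.83 ± 0.24 (SE, adjusted p = 0.004). In both of these the lowest 7dS library lay well above the highest 1dS library. dd_Smed_v6_1789_0_1 had 21.1, 36.8, 26.7 and 47.4 in X2 cells at 7dS, against 6.41, 10.1, 5.25 and 14.3 at 1dS, a change of 1.79 ± 0.34 (SE, adjusted p = 0.01). dd_Smed_v6_234_0_1 had 49.2, 76.7, 73.8 and 61.8 in X2 cells at 7dS, against 19.1, 10.5, 16.8 and 31.2 at 1dS, a change of 1.78 ± 0.28 (SE, adjusted p = 0.0055). These values, too, were separate in every library. Without X2 1dS replicates 1 and 3 together, the changes of dd_Smed_v6_2103_0_1 and dd_Smed_v6_1789_0_1 no longer passed in limma, at 1.58 and 1.32 with adjusted p of 0.19 and 0.12. The single fall past the threshold without overlap was in dd_Smed_v6_10348_0_1, with 10.6, 10.8, 8.46 and 8.33 in X2 cells at 7dS, against 21.7, 11.9, 21.1 and 11 at 1dS and a change of -0.67 ± 0.23 (SE, adjusted p = 0.085). The 1dS values fell into a high and a low pair, and the high pair was X2 1dS replicates 1 and 3, without which it did not pass. That fall did not pass after rescaling each library, with a change of -0.28 and an adjusted p of 0.57 in limma.

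At 30dS the largest rises in X2 were in 5 other transcripts, and they were larger than those at 7dS. dd_Smed_v6_20_0_1 had 299.7, 562, 808 and 528 in X2 cells at 30dS, against 29.9, 26.2, 46.0 and 45.4 at 1dS, a change of 3.82 ± 0.41 (SE, adjusted p = 0.00093). dd_Smed_v6_100_0_1 had 51.8, 143, 121 and 67.5 in X2 cells at 30dS, against 2.93, 4.19, 7.01 and 9.68 at 1dS, a change of 3.79 ± 0.63 (SE, adjusted p = 0.0038). The 7dS libraries had 45.2, 146, 67.2 and 154 for the first and 2.53, 36.7, 8.93 and 25.9 for the other. Of these, 45.2, 2.53 and 8.93 did not exceed the highest 1dS library, and the rest lay between the 1dS and the 30dS libraries. dd_Smed_v6_75_0_1 had 40.6, 109, 112 and 62.6 in X2 cells at 30dS, against 4.97, 5.41, 5.50 and 10.6 at 1dS, a change of 3.37 ± 0.52 (SE, adjusted p = 0.0032). dd_Smed_v6_44_0_1 had 40.4, 149, 129 and 79.8 in X2 cells at 30dS, against 5.53, 8.55, 12 and 9.22 at 1dS, a change of 3.24 ± 0.55 (SE, adjusted p = 0.0042). dd_Smed_v6_87_0_1 had 83.4, 168, 277 and 112 in X2 cells at 30dS, against 32.6, 18.0, 20.3 and 11.5 at 1dS, a change of 2.84 ± 0.38 (SE, adjusted p = 0.0021). In all 5 the lowest 30dS library came from replicate 1 and still exceeded every 1dS library. None of the 5 falls past the threshold at 30dS was free of overlap. They were those of dd_Smed_v6_1611_0_1, dd_Smed_v6_727_0_1, dd_Smed_v6_1006_0_1, dd_Smed_v6_4665_0_1 and dd_Smed_v6_10348_0_1, with changes between -1.37 and -0.62. Against 7dS, dd_Smed_v6_20_0_1 was the only member higher at 30dS, by 2.49 ± 0.41 (SE, adjusted p = 0.064), against 0.12% of all transcripts. Without X2 7dS replicate 1 or 3 or X2 30dS replicate 2, 3 or 4 it did not pass, and without X2 7dS replicate 2 or X2 30dS replicate 1 there were 2 such members. No member was lower in limma, against 0.00667% of all, and at an unadjusted p under 0.05 there were 0 (0%), against 0.56% of all.

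The annotated members behaved differently from one another in X2. TUBB4B had 904, 886, 709.9 and 891 in X2 cells at 7dS, against 421, 419, 417 and 783 at 1dS, with X2 1dS replicate 4 apart from the other libraries. Its change was 0.78 ± 0.25 (SE, adjusted p = 0.068) at 7dS and 0.70 ± 0.25 (SE, adjusted p = 0.085) at 30dS, and neither passed with median-of-ratios scaling (adjusted p of 0.12 and 0.15 in limma) or without X2 1dS replicates 1 and 3 (0.34 and 0.38). TUBA1C changed by 0.55 ± 0.21 (SE, adjusted p = 0.11) and 0.27 ± 0.21 (SE, adjusted p = 0.41), TUBA1A by 0.14 ± 0.19 (SE, adjusted p = 0.66) and -0.02 ± 0.19 (SE, adjusted p = 0.95), and none of these passed. xbp1 changed by 0.51 ± 0.26 (SE, adjusted p = 0.22) and 0.52 ± 0.26 (SE, adjusted p = 0.2), and P4HB by -0.24 ± 0.29 (SE, adjusted p = 0.64) and -0.24 ± 0.29 (SE, adjusted p = 0.62), again short of the threshold. The members whose GO terms include alpha-amino acid metabolism and the breakdown of nitrogen compounds were 3 transcripts, and all 3 were higher in X2 at 7dS. dd_Smed_v6_1073_0_1 had 10.8, 16.6, 10.1 and 18.8 in X2 cells at 7dS, against 2.37, 3.66, 1.79 and 6.66 at 1dS, a change of 1.77 ± 0.32 (SE, adjusted p = 0.0083), and it was also higher at 30dS, by 2.07 ± 0.32 (SE, adjusted p = 0.0031). dd_Smed_v6_2328_0_1 changed by 1.19 ± 0.23 (SE, adjusted p = 0.01) and 0.95 ± 0.23 (SE, adjusted p = 0.02). dd_Smed_v6_2408_0_1 changed by 1.08 ± 0.36 (SE, adjusted p = 0.076) and 0.47 ± 0.36 (SE, adjusted p = 0.41), of which only the 7dS change passed. Their GO terms come from a shortened list of genes changed in the separate RNAi experiment, so these 3 are not a full count of that process.

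**Figure D4:**
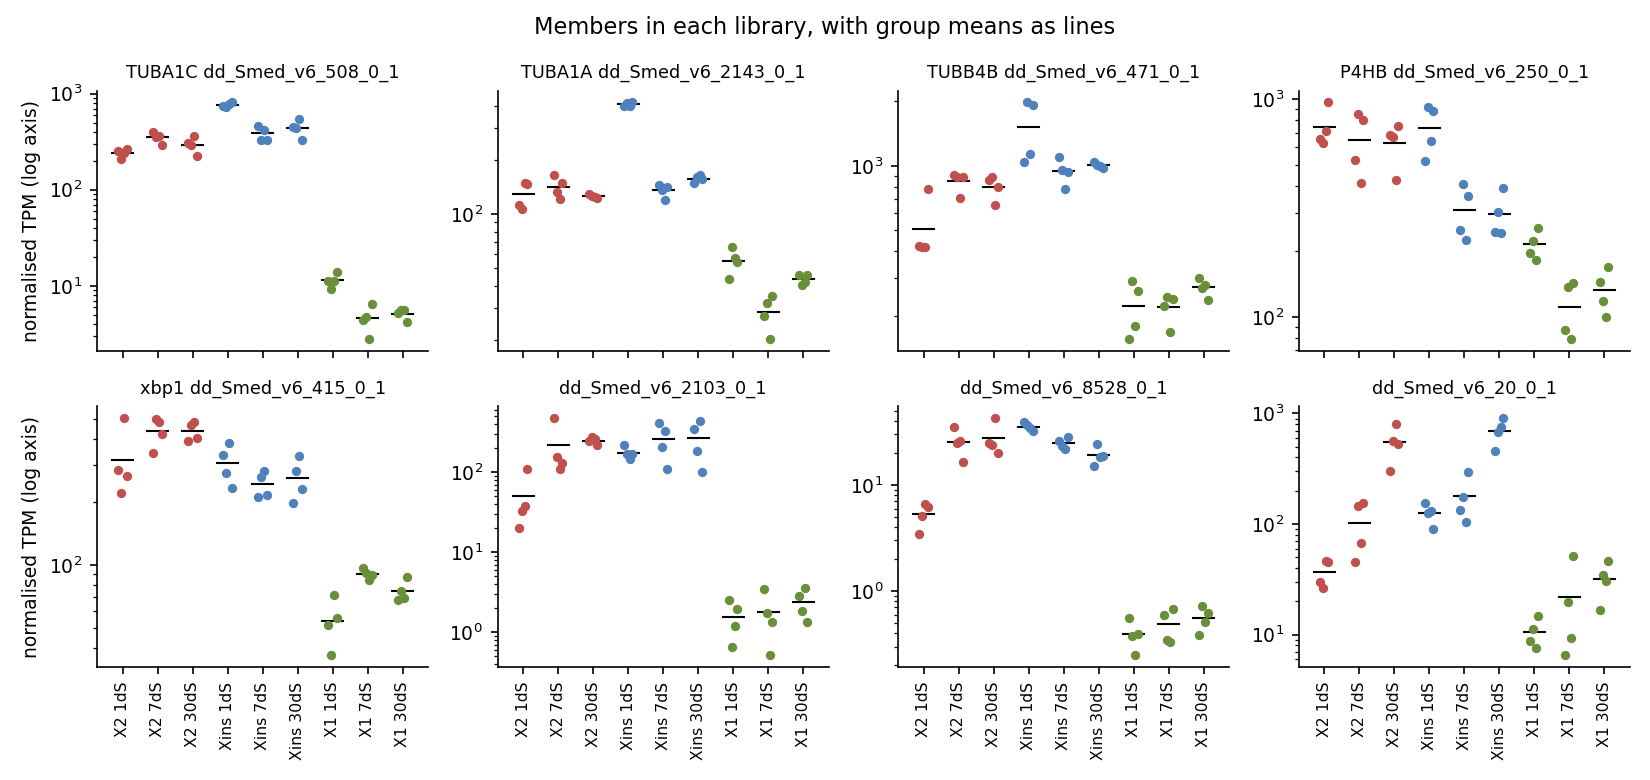
Each panel shows 1 member, with points for the 4 libraries of each group and lines for group means, and the y axis is normalised TPM on a log scale. Populations were normalised separately by the authors, so levels are to be read within a population. TUBA1C and TUBA1A stood highest in Xins at 1dS, and dd_Smed_v6_20_0_1 was highest at 30dS in X2 and in Xins.

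In Xins, members were lower and none was higher at 7dS on the values as deposited. The count was 0 higher and 12 lower, 0% and 6%, against 2.05% and 3.06% of the 16996 transcripts tested. At an unadjusted p under 0.05, 5 (2.5%) were higher in the same limma fit, against 8.38% of all. At this comparison same-numbered libraries deviated together, though only 4 of 8 correlated best with their own number. With the replicate number as a block 16 members were higher and 43 lower, 8% and 21.5%, against 14.1% of all in each direction. After rescaling each library to 1000000, 5 were higher and 4 lower, 2.5% and 2%, against 4.2% and 0.594% of all. The members' median relative to all transcripts was -0.24 as deposited, -0.15 after rescaling and -0.24 with median-of-ratios scaling. At 30dS, 15 were higher and 14 lower, 7.5% and 7%, against 3.31% and 3.85% of all, and the rescaled values gave 18 and 5, 9% and 2.5%, against 4.89% and 0.935% of all. Without Xins 30dS replicate 2, 8 were higher and 8 lower at 30dS (4% each, against 1.15% and 1.76% of all), and without Xins 30dS replicate 1, 8 were lower (4%, against 1.39%).

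Alpha-tubulins and the ER gene P4HB were among the members that fell in Xins. TUBA1A had 146, 136, 120.4 and 141 in Xins cells at 7dS, against 398.3, 416, 397.9 and 418 at 1dS, a change of -1.58 ± 0.15 (SE, adjusted p = 0.0011), and at 30dS it had 149, 160.1, 164 and 158 with a change of -1.37 ± 0.15 (SE, adjusted p = 0.0012). The 1dS libraries lay within a narrow range, far above all 8 later ones. TUBA1C had 465, 329, 418 and 330.2 in Xins cells at 7dS, against 748, 730.3, 788 and 812 at 1dS, a change of -1.01 ± 0.22 (SE, adjusted p = 0.034), and changed by -0.82 ± 0.22 (SE, adjusted p = 0.059) at 30dS. P4HB had 251, 407, 225 and 359 in Xins cells at 7dS, against 521, 920.4, 642 and 878 at 1dS, a change of -1.26 ± 0.28 (SE, adjusted p = 0.038), and changed by -1.31 ± 0.28 (SE, adjusted p = 0.026) at 30dS. After rescaling each library, the falls of TUBA1C and P4HB kept their direction but did not pass, with limma adjusted p of 0.22 and 0.41 at 7dS and 0.25 and 0.33 at 30dS. TUBB4B changed by -0.64 ± 0.27 (SE, adjusted p = 0.25) and -0.54 ± 0.27 (SE, adjusted p = 0.35) and xbp1 by -0.31 ± 0.23 (SE, adjusted p = 0.56) and -0.23 ± 0.23 (SE, adjusted p = 0.7), none past the threshold.

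Of the members without a symbol, the largest falls in Xins without overlap were shared by both times. dd_Smed_v6_954_0_1 had 19.1, 20.6, 16 and 20.8 in Xins cells at 7dS, against 56.5, 53.6, 57.1 and 57.0 at 1dS, a change of -1.51 ± 0.24 (SE, adjusted p = 0.011), and its 1dS libraries were nearly equal. dd_Smed_v6_5786_0_1 had 19.0, 11.3, 10.5 and 13.6 in Xins cells at 7dS, against 63.7, 24.5, 50.9 and 26.5 at 1dS, a change of -1.46 ± 0.32 (SE, adjusted p = 0.035). dd_Smed_v6_2679_0_1 had 112, 110.3, 93.7 and 103 in Xins cells at 7dS, against 249, 310.0, 291 and 307 at 1dS, a change of -1.45 ± 0.15 (SE, adjusted p = 0.0016), with every 1dS library well above every 7dS library. At 30dS these 3 changed by -1.42, -1.52 and -1.23, all past the threshold. The largest fall at 30dS was in dd_Smed_v6_1242_0_1, with 14, 27.2, 58.5 and 13.5 in Xins cells at 30dS, against 74.2, 60.3, 85.5 and 108 at 1dS, a change of -1.72 ± 0.51 (SE, adjusted p = 0.089), which did not pass with median-of-ratios scaling (adjusted p = 0.12, limma).

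Some members rose at 30dS in both X2 and Xins, which share no library but may share animals. The 13 members called higher in both were 25.5% of the 51 in X2 and 86.7% of the 15 in Xins. Over all transcripts, 236 were called higher in both, 12.6% of the 1875 in X2 and 41.9% of the 563 in Xins, and the difference between these shares was not tested. The 5 largest rises were the same in both. dd_Smed_v6_20_0_1 had 456, 675, 753 and 906 in Xins cells at 30dS, against 155, 127, 129.8 and 90.6 at 1dS, a change of 2.45 ± 0.33 (SE, adjusted p = 0.003). dd_Smed_v6_100_0_1 had 81.1, 133, 124 and 118 in Xins cells at 30dS, against 20.9, 15.5, 22.9 and 9.79 at 1dS, a change of 2.69 ± 0.54 (SE, adjusted p = 0.021). Every 30dS library of both was above every 1dS library, and at 7dS replicate 4 was the high one of its group, with 134, 177, 105 and 298 for the first and 11.2, 37.5, 11.6 and 86.2 for the other. dd_Smed_v6_75_0_1 changed by 2.63 ± 0.52 (SE, adjusted p = 0.018), dd_Smed_v6_44_0_1 by 2.59 ± 0.59 (SE, adjusted p = 0.034) and dd_Smed_v6_87_0_1 by 2.40 ± 0.34 (SE, adjusted p = 0.0035). In X1, where these 5 were low, none of their changes at 30dS passed, and dd_Smed_v6_20_0_1 had 16.6, 34.3, 30.5 and 46.2 in X1 cells at 30dS, against 8.72, 11.3, 7.58 and 14.8 at 1dS, with 30dS libraries all above those at 1dS and a change of 1.46 ± 0.51 (SE, adjusted p = 0.12). dd_Smed_v6_1073_0_1, of the amino acid group, was also higher in Xins at 30dS, by 2.26 ± 0.47 (SE, adjusted p = 0.025). Between 30dS and 7dS in Xins, dd_Smed_v6_87_0_1 and dd_Smed_v6_20_0_1 were higher, by 2.08 ± 0.34 (SE, adjusted p = 0.063) and 2.03 ± 0.33 (SE, adjusted p = 0.063), so 2 members rose, against 0.124% of all. The limma fit called no member lower, against 0.0177% of all, while 2 (1%) were lower at an unadjusted p under 0.05, against 0.971% of all. With the replicate block, which same-numbered libraries justified here, 13 were higher and 0 lower, 6.5% and 0%, against 0.518% and 0.235% of all, and after rescaling each library none was higher or lower, of the members or of all. Without Xins 7dS replicate 4, 6 were higher (3%, against 0.303% of all), and without any other single library of these groups none was.

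In X1, where most members were scarce, more of them were lower than higher at 7dS. The counts were 4 higher and 20 lower of 184 tested, 2.17% and 10.9%, against 6.77% and 6.92% of the 13269 transcripts tested. After rescaling each library, 4 were higher and 5 lower, against 3.71% and 2.1% of all. Without X1 1dS replicate 3 or without X1 7dS replicate 3, 9 were lower, and without X1 7dS replicate 2, 11 were, against 3.81%, 3.21% and 3.67% of all. At 30dS, 4 were higher and 4 lower, against 5.43% and 4.36% of all, with 2 and 4 after rescaling (2.93% and 1.7% of all) and 2 and 4 with median-of-ratios scaling (4.73% and 3.01% of all). The 4 higher became 2 without X1 1dS replicate 1, X1 1dS replicate 3, X1 30dS replicate 1 or X1 30dS replicate 3, and 0 without X1 30dS replicate 2, and the 4 lower became 2 without X1 30dS replicate 1. In these fits 2.7% to 3.84% of all were higher, and 2.18% lower in the last. Without X1 1dS replicate 2 again 4 were higher, but only 1 of them was among the 4 of the main fit. Between 30dS and 7dS, limma called no member higher or lower, against 0% and 0.00754% of all. At an unadjusted p under 0.05, 4 were higher and 2 lower, 2.17% and 1.09%, against 1.08% and 1.89% of all. The replicate block, for which the numbers paired the libraries only weakly in this comparison, also gave none.

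The annotated members changed in X1 as follows. The symbols of TUBA1C, TUBA1A and P4HB, and the GO terms of the 2 transcripts described after them, come from the study's lists of transcripts lower in X1 at 7dS or 30dS than at 1dS in these libraries, so their falls in X1 are a description and no independent evidence. TUBA1C had 4.40, 4.78, 2.77 and 6.46 in X1 cells at 7dS, against 11.2, 9.31, 11.3 and 14.1 at 1dS, a change of -1.18 ± 0.20 (SE, adjusted p = 0.0071), and changed by -1.01 ± 0.20 (SE, adjusted p = 0.016) at 30dS. TUBA1A changed by -0.94 ± 0.19 (SE, adjusted p = 0.014) at 7dS, with 27.3, 31.9, 20.1 and 34.9 in X1 cells at 7dS, against 43.9, 65.7, 56.7 and 54.3 at 1dS, and by -0.32 ± 0.19 (SE, adjusted p = 0.36) at 30dS, where it did not pass. P4HB had 87.4, 136, 78.6 and 143 in X1 cells at 7dS, against 197, 224, 183 and 256 at 1dS, a change of -0.98 ± 0.24 (SE, adjusted p = 0.034), and changed by -0.71 ± 0.24 (SE, adjusted p = 0.12) at 30dS, where it did not pass. The falls of these genes at 7dS kept their direction after rescaling but no longer passed, with limma adjusted p of 0.12 for TUBA1C, 0.24 for TUBA1A and 0.36 for P4HB, and likewise for TUBA1C at 30dS, with 0.18. xbp1 went the other way, with 96.5, 91.6, 84.6 and 89.9 in X1 cells at 7dS, against 51.5, 37.0, 71.7 and 56.0 at 1dS, a change of 0.77 ± 0.19 (SE, adjusted p = 0.035), and no 7dS library overlapped 1dS. Its change at 30dS, 0.49 ± 0.19 (SE, adjusted p = 0.17), did not pass. TUBB4B changed by 0.02 ± 0.23 (SE, adjusted p = 0.98) and 0.33 ± 0.23 (SE, adjusted p = 0.44), neither past the threshold. Both transcripts whose GO term is the response to topologically incorrect protein, dd_Smed_v6_4230_0_1 (also response to ER stress) and dd_Smed_v6_4539_0_1, were lower at 7dS, with changes of -0.56 ± 0.18 (SE, adjusted p = 0.076) and -1.04 ± 0.25 (SE, adjusted p = 0.027). Neither passed after rescaling, with adjusted p of 0.61 and 0.27 in limma.

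Among the other members, dd_Smed_v6_234_0_1 and dd_Smed_v6_229_0_1 were higher in X1 at both later times. dd_Smed_v6_234_0_1 had 19.9, 13.3, 13.5 and 13.2 in X1 cells at 7dS, against 5.05, 4.25, 4.82 and 7.43 at 1dS, a change of 1.32 ± 0.19 (SE, adjusted p = 0.0029), and 10.9, 9.24, 8.56 and 8.09 at 30dS, a change of 0.69 ± 0.19 (SE, adjusted p = 0.053). dd_Smed_v6_229_0_1 changed by 1.01 ± 0.25 (SE, adjusted p = 0.033) and 0.80 ± 0.25 (SE, adjusted p = 0.089). Both were also among the members higher in X2 at 7dS and 30dS. The other rises past the threshold without overlap were those of dd_Smed_v6_5826_0_1 at 7dS, 0.80, and of dd_Smed_v6_7358_0_1 and dd_Smed_v6_7293_0_1 at 30dS, 0.66 and 0.57. The largest fall at 7dS was in dd_Smed_v6_898_0_1, with 9.01, 5.66, 6.89 and 4.09 in X1 cells at 7dS, against 18.7, 21.8, 27.7 and 11.8 at 1dS, a change of -1.49 ± 0.38 (SE, adjusted p = 0.037). dd_Smed_v6_2520_0_1, dd_Smed_v6_2800_0_1 and dd_Smed_v6_1611_0_1 were lower at both times, with changes of -1.18, -1.13 and -1.06 at 7dS and -1.19, -1.07 and -1.04 at 30dS (log2). In X1 dd_Smed_v6_2800_0_1 had 8.40, 9.08, 8.75 and 9.07 at 7dS, against 21.6, 23.8, 19.6 and 17.5 at 1dS, without overlap.

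A difference between X2 and Xins in the response to starvation was sought with an interaction term in limma, over all 36 libraries scaled to 1000000 each. The fit treated the libraries as independent. X2 and Xins libraries of the same time and number may come from the same animals, which the labels do not say and which was not tested. At 7dS the response was higher in X2 than in Xins for 16 members and lower for none, 8% and 0% of 200, against 1.43% and 0.869% of the 17034 transcripts tested. At an unadjusted p under 0.05, 2 members (1%) had a lower response in X2, against 4.23% of all. At 30dS it was higher for 16 and lower for 1, 8% and 0.5%, against 2.55% and 0.904% of all. The median difference was 0.41 and 0.43 (log2), against -0.04 and 0.16 over all transcripts. The 1dS libraries are shared by both comparisons. The X2 change was positive in all 16 members called higher at each time, and the Xins change was negative in 9 of them at 7dS and in 12 at 30dS. On these rescaled values most members had a positive change in any case. In X2 175 of the 200 were positive at 7dS and 174 at 30dS, and in Xins 147 and 135. The median X2 change of all transcripts was itself 0.36 and 0.39.

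Both alpha-tubulins were among these members. TUBA1A changed at 7dS by 0.56 in X2 and -1.17 in Xins, a difference of 1.73 ± 0.45 (SE, adjusted p = 0.043). TUBA1C changed at 7dS by 0.96 in X2 and -0.59 in Xins, a difference of 1.56 ± 0.38 (SE, adjusted p = 0.028). At 30dS the differences were 1.54 and 1.28, with limma adjusted p of 0.069 and 0.075. On the values as deposited, neither alpha-tubulin changed past the threshold in X2 at either time. For TUBB4B, xbp1 and P4HB the differences at 7dS were 1.42 ± 0.58, 0.83 ± 0.36 and 1.02 ± 0.70 (SE), and none passed. The largest difference at both times was in dd_Smed_v6_8528_0_1, which changed at 7dS by 2.40 in X2 and -0.10 in Xins, a difference of 2.50 ± 0.39 (SE, adjusted p = 0.00035) and at 30dS by 2.55 in X2 and -0.61 in Xins, a difference of 3.16 ± 0.39 (SE, adjusted p = 7.1e-06). In Xins this transcript had 15.2, 24.2, 18.3 and 18.9 in Xins cells at 30dS, against 39.2, 36.8, 34.2 and 32.0 at 1dS, the opposite order to X2. dd_Smed_v6_5786_0_1 changed at 7dS by 1.30 in X2 and -1.05 in Xins, a difference of 2.35 ± 0.41 (SE, adjusted p = 0.0014), and dd_Smed_v6_2282_0_1 by 2.20 in X2 and 0.13 in Xins, a difference of 2.08 ± 0.51 (SE, adjusted p = 0.028). dd_Smed_v6_2103_0_1 changed at 30dS by 3.02 in X2 and 0.66 in Xins, a difference of 2.36 ± 0.67 (SE, adjusted p = 0.057). The single member with a lower response in X2 was dd_Smed_v6_1611_0_1, which changed at 30dS by -0.91 in X2 and 0.15 in Xins, a difference of -1.06 ± 0.30 (SE, adjusted p = 0.06).

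Without X2 1dS replicates 1 and 3 together, 4 members at 7dS and 5 at 30dS had a higher response in X2, 2% and 2.5%, against 0.407% and 0.861% of all, and the single lower one was lost. Of the named members, dd_Smed_v6_8528_0_1 and dd_Smed_v6_5786_0_1 passed in that fit at both times, while TUBA1A and TUBA1C did not, with limma adjusted p of 0.33 and 0.25 at 7dS and 0.45 and 0.48 at 30dS. dd_Smed_v6_2282_0_1 at 7dS (0.36) and dd_Smed_v6_2103_0_1 and dd_Smed_v6_1611_0_1 at 30dS (0.56 and 0.40) did not pass either. Leaving out 1 library at a time gave 10 to 25 members at 7dS, lowest without X2 1dS replicate 3 or Xins 7dS replicate 3 and highest without X2 1dS replicate 4. At 30dS it gave 8 to 30, lowest without X2 1dS replicate 1, X2 1dS replicate 3 or X2 30dS replicate 1 and highest without X2 1dS replicate 4. Of all transcripts, 0.881%, 1.04% and 2.63% had a higher response in the fits named for 7dS. Those named for 30dS gave 1.68%, 1.56%, 1.69% and 4.94%. Counts of 9 or 10 at 30dS came without X2 30dS replicate 4, Xins 1dS replicate 2, Xins 1dS replicate 4 or Xins 30dS replicate 3. The single lower response was lost without X2 1dS replicate 1 or 3, X2 30dS replicate 1 or 4, Xins 1dS replicate 2 or Xins 30dS replicate 1, 2 or 3. On the values as deposited, which were scaled separately per population, 26 and 30 members had a higher response in X2, 13% and 15%, against 5.16% and 6.46% of all.

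**Figure D5:**
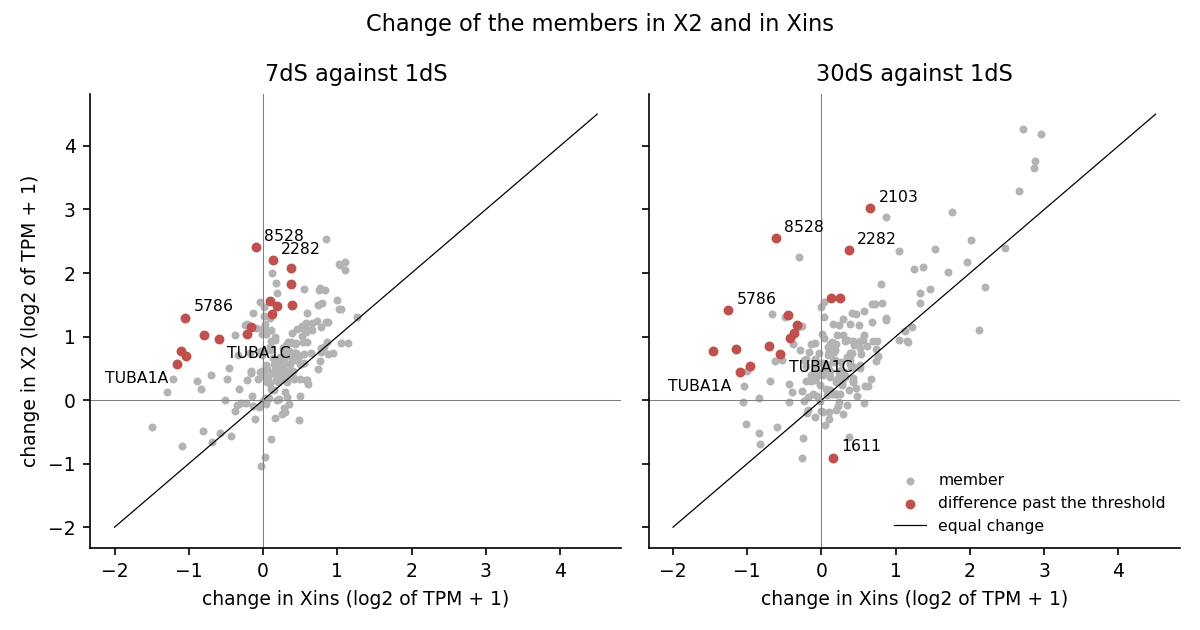
Each point is a member, with its change in Xins on the x axis and in X2 on the y axis, both as log2 of rescaled TPM + 1 against 1dS, and labels give symbols or the number in the transcript name. Red points passed the test of the difference (16 at 7dS and 17 at 30dS), and all but dd_Smed_v6_1611_0_1 lie above the line of equal change.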

How the data were processed

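RNA was sequenced from sorted X1, X2 and Xins cells. The deposited signal values are TPM that the authors estimated with kallisto 0.43.0, per the submitters' processing notes, on a planarian transcriptome and normalised in Sleuth, in a separate table per population. No read counts are in these tables, so depth is unknown and no count model was used. Every column was mapped to its library by name.

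Levels across populations used values rescaled to 1000000 per library. Times were compared in limma 3.58.1 (R 4.3.3) with an intensity trend, on log2 of the deposited value + 1, over the 12 libraries of a population. Transcripts averaging at least 1 were tested, and an adjusted p of at most 0.1 was called. Fold changes on this scale understate those of low transcripts. The difference in response between X2 and Xins was fitted on rescaled values. Tables were made with Python 3.11.15, pandas 2.3.3, numpy 2.4.6 and matplotlib 3.10.9. The fits were tested on simulated data.

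The members and lists were chosen with earlier results of these data known. Named members were the 10 largest by the rule, the 3 on either side of its edge, those with a symbol or GO term, the 3 at each extreme of X2 level, of X2 minus Xins and of replicate SD, and the 5 largest called changes without overlap per direction (3 for the difference in response). The falls in X2 at 30dS and the values of members that were named under another part of this rule were added after they were seen.

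Same-numbered libraries deviated together (every correlation over 0.1) between 7dS and 1dS in Xins (lowest 0.45), between 30dS and 7dS in Xins (lowest 0.33) and between 30dS and 7dS in X1 (lowest 0.11), where the replicate number was also used as a block.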

Additional observations from a re-analysis of the deposited data

Results flagged for a closer look

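A library set apart from the other 3 was sought in 88 groups of 4 libraries, and chance alone sets apart about 5% of such groups. The groups were those of the members named for a rise or fall between times, and the summed share of the members in each of the 9 groups. Members named only for another reason were not searched, such as TUBB4B, whose X2 1dS replicate 4 stood apart. The search found 4 values set apart, given as normalised TPM. dd_Smed_v6_2103_0_1 had 475 in X2 7dS replicate 1, against 112 to 158 in the other X2 7dS libraries. dd_Smed_v6_75_0_1 had 10.6 in X2 1dS replicate 4, against 4.97 to 5.50 in the others. dd_Smed_v6_87_0_1 had 78.3 in Xins 7dS replicate 4, against 48.0 to 50.2. dd_Smed_v6_234_0_1 had 19.9 in X1 7dS replicate 1, against 13.2 to 13.5.

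In limma the response to starvation differed between X2 and Xins for these named members. At 7dS, X2 minus Xins was 2.50 (log2) for dd_Smed_v6_8528_0_1, 2.35 for dd_Smed_v6_5786_0_1 and 2.08 for dd_Smed_v6_2282_0_1. At 30dS it was 3.16 for dd_Smed_v6_8528_0_1, 2.67 for dd_Smed_v6_5786_0_1, 2.36 for dd_Smed_v6_2103_0_1 and -1.06 for dd_Smed_v6_1611_0_1. X2 1dS replicates 1 and 3, which list the most transcripts at 0, enter all 7 of these values, and without them both differences of dd_Smed_v6_8528_0_1 and dd_Smed_v6_5786_0_1 still passed and the others did not.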

How the results depend on the processing

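Depth is unknown, which limits what low values can show. Membership depended on the thresholds of the rule. Of the 200, 133 were kept with a floor of 5 TPM, 128 with 20, 77 with X2 and Xins less than 0.5 apart, 108 with less than 2, 103 on the 1dS libraries alone and 107 on those of 30dS.

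Counts are given here as higher or lower, in the order 7dS and 30dS against 1dS, then 30dS against 7dS. With the replicate number as a block, members higher in X2 numbered 71, 76 and 8 and lower 22, 25 and 0. Of all transcripts, 18.3%, 21% and 0.44% were then higher and 15.6%, 17% and 0.0866% lower. In Xins the block gave 16, 33 and 13 higher and 43, 39 and 0 lower, in X1 6, 12 and 0 higher and 29, 12 and 0 lower, and for the difference in response 40 and 48 higher and 2 and 2 lower. Over all transcripts the shares were 14.1%, 14.1% and 0.518% higher and 14.1%, 13.2% and 0.235% lower in Xins. In X1 they were 9.79%, 7.55% and 0% higher and 10.8%, 7.72% and 0% lower. For the difference in response they were 4.99% and 9.53% higher and 3.41% and 3.72% lower. Block and rescaling together gave 131 and 130 higher in X2 (65.5% and 65%, against 34.4% and 39.4% of all) and 6 and 6 lower (3% and 3%, against 6.43% and 6.52% of all). Without X2 1dS replicates 1 and 3, 10 and 26 were higher and 0 and 0 lower in X2, and 4 and 5 had a higher and 0 and 0 a lower response. Both were chosen after seeing the data. Same-numbered libraries did not deviate together throughout in the other comparisons (lowest correlation in X2 -0.19, -0.46 and -0.065, in Xins -0.23 and in X1 -0.28 and 0.098). These correlations alone do not show that a shared number pairs them there. Replicate 4 still had the lowest deposited sum in every group, so the numbers may share structure that the main tests do not take up. In X2, 3 of 8 libraries correlated best with their own number at 7dS and at 30dS and 5 of 8 between the later times.

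Rescaling each library gave 3 lower in X2 at 7dS, 3 higher between 30dS and 7dS, 5 higher and 4 lower in Xins at 7dS, 5 lower at 30dS, 0 higher between 30dS and 7dS, 5 lower in X1 at 7dS and 2 higher at 30dS. Of all transcripts, 2.36% were then lower in X2 at 7dS and 0.176% higher between 30dS and 7dS. Median-of-ratios scaling gave 1 lower in X2 at 7dS and 2 higher in X1 at 30dS. With no filter, 0 were lower in X2 at 7dS, 2 higher between 30dS and 7dS, and 2 higher in X1 at 30dS. Using only the libraries of the times compared, 27 were higher and 0 lower in X2 at 7dS, 0 higher between 30dS and 7dS, 5 lower in Xins at 7dS, 12 lower in X1 at 7dS and 2 higher at 30dS. Of all transcripts at 7dS, 3.8% were then higher and 3.22% lower in X2, 0.751% lower in Xins and 3.59% lower in X1. A pseudocount of 0.1 gave 0 higher in X2 between 30dS and 7dS and 9 with a higher response at 30dS. As deposited, 26 and 30 had a higher response, and 0 a lower one at 30dS.

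Leaving out 1 library at a time gave, in X2, 28 to 55 higher and 0 to 13 lower at 7dS, 33 to 55 and 1 to 17 at 30dS, and 0 to 2 higher between them. In Xins it gave 8 to 11 lower at 7dS, 8 to 15 higher and 8 to 12 lower at 30dS, and 0 to 6 higher between them. In X1 it gave 3 to 4 higher and 9 to 22 lower at 7dS and 0 to 4 and 2 to 6 at 30dS. A higher response was found in 10 to 25 and 8 to 30 members, and a lower one in 0 to 1 at each time. Of 1195 alternative values of the 76 results for named members, 934 stayed past the threshold, 261 did not and 0 changed sign. Apart from the scalings and samples named, the cause was not tested.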

Other observations

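On values rescaled to the same total per library, 1 replicate number was often the highest or the lowest of its group at all 3 times. This held among the members as among all transcripts. Replicate 4 had the lowest deposited sum in every group, so the rescaling itself raised its values relative to the other replicates. In X2, replicate 4 was the highest of its group at 1dS, 7dS and 30dS in 72 members (36%), against 41.8% of all transcripts averaging at least 1. In Xins this held for 54 members (27%), against 34.6% of all, and in X1 for 51 (25.5%), against 24.6%. Replicate 3 was the lowest at all 3 times in 70 members (35%) of X2, against 34.2% of all. In X2 it had the highest deposited sum at all 3 times, so the rescaling lowered its values relative to the others. Whether these orders hold on the values as deposited was not tested.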
